A study of Mus musculus with 15 samples.

Results

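The TCRs described here are T cell receptor β chains with a long CDR3, meaning a productive rearrangement whose CDR3 begins with cysteine and spans 16 or more amino acids. Across 15 samples the deposited tables listed 29992 rearrangements, of which 18448 were productive with a CDR3 beginning with cysteine, and 2417 of these (13.1%) had a long CDR3. A TCR is counted once in every sample that holds it, so the 2417 comprised 2283 distinct nucleotide rearrangements and 2118 distinct amino acid sequences. The other 16031 productive TCRs, with a CDR3 of at most 15 amino acids, served as the comparison. All long CDR3s ended in phenylalanine. The rule used the amino acid length and no count, gene or tissue.

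The samples came from 5 female C57BL/6 mice, bought at 6 weeks of age, that received no radiotherapy and no antibody. Each mouse carried B16F10GP, a B16F10 melanoma line transduced with the glycoprotein of lymphocytic choriomeningitis virus as a model antigen, on the right flank (tumor 1, implanted first) and on the left flank (tumor 2, implanted later). CD8+ PD-1+ CD44+ T cells, which are activated cells that carry an inhibitory receptor, were sorted from the tumor-draining lymph node (TdLN) and from both tumors, giving 5 samples per tissue. Per the study's description the lymph node came from the side of tumor 1, so it is not the node that drains tumor 2. The labels give the tumor line in the field for the cell type although the sorted cells are T cells. Genomic DNA of these cells was sequenced with the immunoSEQ assay, and the values used are its counts of templates, which are estimates of how many genomes carried each 87-base rearrangement.

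The CDR3 is the loop of the receptor that sits over the peptide when a T cell reads an MHC molecule. During thymocyte development a V, a D and a J gene segment are joined, exonucleases trim the ends, and terminal transferase adds bases without a template, the N bases, on both sides of the D segment. The length of the loop is therefore the sum of what is kept of V, D and J and of what is added between them, so the use of V, D and J genes is not independent of length.

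The mouse β chain locus holds 2 D segments, shown here as the genome build GRCm38 (mm10) gives them because their lengths differ and the second is the more frequent among long CDR3s. Trbd1 lies at chr6:41533201-41533212, before the Trbj1 genes. Trbd2 lies at chr6:41542163-41542176, between the Trbj1 and the Trbj2 genes, and the capitals mark bases that are read as aspartate, tryptophan and glycine in the reading frame used by the largest long TCRs.
Trbd1: gggacagggggc
Trbd2: ggGACTGGGGGggc

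The J genes differ as well in how many of their germline bases belong to the CDR3. The ones shown are the J gene with the highest and the one with a low share of long CDR3s, Trbj2-2 at chr6:41542957-41543007 and Trbj2-7 at chr6:41543810-41543856, with the bases up to the conserved phenylalanine codon in capitals.
Trbj2-2: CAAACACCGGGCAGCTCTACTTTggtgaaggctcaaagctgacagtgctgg
Trbj2-7: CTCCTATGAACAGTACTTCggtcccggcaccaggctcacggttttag

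The rearrangements that follow are long TCRs chosen because each was the largest of a sample, was found in most mice, or had one of the longest CDR3s. They are printed as the 87-base read, which stops 3 bases before the end of the CDR3. The capitals mark the bases between the V and the J part, that is the D segment and the N bases, as the tables place them. Clones are named by their V and J genes, and template counts given for a clone are those of the printed or named nucleotide rearrangement.
Trbv5/Trbj2-7: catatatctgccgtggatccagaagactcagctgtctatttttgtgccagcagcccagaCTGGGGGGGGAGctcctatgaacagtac
Trbv2/Trbj2-1: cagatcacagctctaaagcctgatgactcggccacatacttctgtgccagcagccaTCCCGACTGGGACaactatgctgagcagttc
Trbv5/Trbj1-4: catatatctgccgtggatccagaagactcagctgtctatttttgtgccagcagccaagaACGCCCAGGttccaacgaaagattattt
Trbv13-3/Trbj2-1: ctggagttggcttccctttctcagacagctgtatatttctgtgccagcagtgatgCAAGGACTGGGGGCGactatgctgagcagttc
Trbv1/Trbj1-4: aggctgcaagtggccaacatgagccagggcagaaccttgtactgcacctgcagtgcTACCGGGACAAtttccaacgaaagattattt
Trbv1/Trbj2-7: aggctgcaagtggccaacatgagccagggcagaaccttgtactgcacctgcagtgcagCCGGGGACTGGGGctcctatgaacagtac
Trbv13-2/Trbj2-5: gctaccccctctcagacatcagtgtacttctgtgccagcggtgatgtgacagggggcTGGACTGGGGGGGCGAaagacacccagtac

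The V part of the Trbv5/Trbj2-7 clone was called Trbv5, and its first 55 of 59 bases matched exon 2 of that gene at chr6:41062745-41062799. All 59 V bases of the Trbv5/Trbj1-4 clone matched the same exon, at chr6:41062745-41062803, and its J part matched Trbj1-4 at chr6:41534812-41534830. In the Trbv13-2/Trbj2-5 clone the tables give 57 V bases, of which the first 46 matched Trbv13-2 at chr6:41121787-41121832, the end of its exon 2. Of the remaining 11 bases the last 10 are the end of Trbd1, and the Trbd2 bases follow after them, so stretches of both D segments stood in this CDR3.

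The samples differed in depth. Total templates, non-productive rearrangements included, ranged from 4909 to 13848 in the TdLN, from 5382 to 7946 in tumor 1 and from 338 to 5401 in tumor 2, where tumor 2 of mouse 4 was the shallowest with 47 productive TCRs on 234 templates. The libraries of tumor 2 of mice 1 to 3 held many rearrangements in common. Tumor 2 of mice 1 and 2 shared 20 identical long nucleotide rearrangements, tumor 2 of mice 1 and 3 held 9, and tumor 2 of mice 2 and 3 held 5, so that 28 of the 75 distinct long rearrangements in these libraries occurred in at least 2 of them. Mouse 2 held 11 long rearrangements of that first library in its tumor 1 and 10 in its TdLN. In turn, 6 long rearrangements from tumor 2 of mouse 2 were in each of the TdLN and tumor 1 of mouse 1. By comparison, the TdLNs of different mice shared at most 2 long rearrangements and their first tumors at most 1. The other TCRs were shared between the same libraries too, with 121 of the 277 of tumor 2 of mouse 1 found in tumor 2 of mouse 2. Tumor 2 of mouse 3 held 19 long TCRs, of which 0 were found in its own TdLN or tumor 1, a count of 0 that allows up to 15.8% of them. Carry-over between libraries or exchanged samples were not tested as a source of the sharing, and that tumor 2 of mice 1 to 3 belongs to the mouse of the same number rests on the labels, also where tumor 2 is compared within mice below. The difference in the share of long CDR3s between tumor 2 and the TdLN is therefore also given without rearrangements found in another mouse. All other values of tumor 2 below come from the whole libraries, shared rearrangements included. Comparisons between long and other TCRs were made in the TdLN, where both classes come from the same libraries at the same depth.

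At the depth sequenced, the share of long CDR3s was lower in tumor 2 than in the TdLN of every mouse, but no difference between tissues passed correction. Among unique TCRs of the TdLN the long share was 17.9%, 14.4%, 14.3%, 12.5% and 12.7% in mice 1 to 5. In tumor 1 it was 9.09%, 16.7%, 15.2%, 10.5% and 8.62%, and in tumor 2 it was 12.6%, 13.5%, 10.2%, 6.38% and 10.8%. Values of all tissues overlapped, and tumor 2 lay below the TdLN of the same mouse in 5 of 5 mice, tumor 1 in 3 of 5. The counting error of single samples was wide in the tumors. For tumor 2 of mouse 4, with 3 long TCRs of 47, the 95% Wilson interval ran from 2.19% to 17.2%, while for the TdLN of mouse 4, with 711 of 5709, it ran from 11.6% to 13.3%. Such intervals reflect counting error alone. Averaged over the 5 mice, the TdLN had 14.4% ± 2.16 (SD), tumor 1 had 12.03% ± 3.69 and tumor 2 had 10.7% ± 2.76. Tumor 1 differed from the TdLN by -2.33 percentage points (two-sided exact permutation test, p = 0.262, adjusted p = 0.524). Tumor 2 differed from it by -3.65 percentage points (exact permutation p = 0.0397, adjusted p = 0.238 over 6 tissue comparisons). Blocked by mouse, the tumor 2 difference had a sign-flip p of 0.0625, the smallest that 5 mice allow (adjusted p = 0.188). Without rearrangements found in another mouse the tumor 2 difference was -4.20 percentage points (exact permutation p = 0.0238, adjusted p = 0.0714), and without tumor 2 of mouse 4 it was -2.57. Tumor 1 and tumor 2 differed by 1.32 percentage points (exact permutation p = 0.532, adjusted p = 0.638), and by 0.243 without tumor 2 of mouse 4. The difference of tumor 1 from the TdLN was -0.718 without mouse 1 and -0.915 with every sample downsampled to 234 templates.

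**Figure D1:**
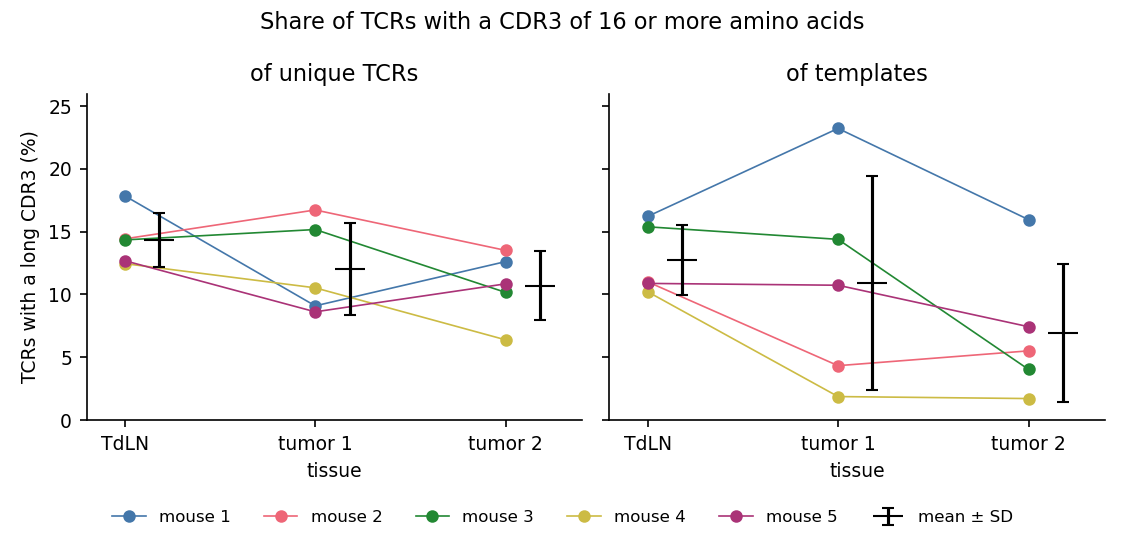
Share of TCRs with a CDR3 of 16 or more amino acids in percent of unique TCRs (left) and of templates (right) for the TdLN, tumor 1 and tumor 2, with a line for each mouse and the mean ± SD over 5 mice in black. Tumor 2 lies below the TdLN in 5 of 5 mice on both scales, and the template share of tumor 1 ranges from 1.87% to 23.2%.

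Counted by templates, the share of long CDR3s varied widely between tumors. In the TdLN it was 16.2%, 11.01%, 15.4%, 10.2% and 10.9% in mice 1 to 5. In tumor 1 it was 23.2%, 4.33%, 14.4%, 1.87% and 10.7%, and in tumor 2 it was 15.96%, 5.51%, 4.03%, 1.71% and 7.43%. Tumor 1 of mouse 1 was above every other sample and tumor 2 of mouse 4 below every other. The largest long TCR alone held 70.8% of the long templates of tumor 1 in mouse 1 and 56.1% in mouse 5, against 15.47% in mouse 2. Averaged over 5 mice, the TdLN had 12.7% ± 2.82 (SD), tumor 1 had 10.9% ± 8.50 and tumor 2 had 6.93% ± 5.46. Neither tumor passed against the TdLN in the test that does not pair the mice (exact permutation p = 0.651 and 0.0794, adjusted p = 0.651 and 0.238). Blocked by mouse, tumor 2 differed from the TdLN by -5.81 ± 4.32 percentage points (SD, n = 5). Its sign-flip p was 0.0625, the smallest that 5 mice allow (adjusted p = 0.188). With the largest long TCR of each sample left out, a choice made after the values were seen, the TdLN had a template share of 10.9% ± 1.14 (SD, n = 5), tumor 1 had 5.41% ± 3.01 and tumor 2 had 3.95% ± 2.62. Leaving out a long TCR and no other TCR lowers this share by construction, and most where 1 clone is large, so these values are a description with no test. Without rearrangements found in another mouse, the tumor 2 difference was -5.56 percentage points (exact permutation p = 0.00794, adjusted p = 0.0476). The tumor 1 difference turned to 2.14 (adjusted exact permutation p = 0.929). That filter took out 35.3% ± 32.5 of the long and 38.1% ± 19.0 of the other TCRs of tumor 2 (SD, n = 5). In the TdLN it took 1.53% ± 1.83 and 2.84% ± 1.70. For tumor 2 it took 70% and 57.0% in mouse 1, among them the Trbv5/Trbj2-7 clone, and 0% and 40.9% in mouse 4. These p-values therefore belong to libraries that the filter thinned unevenly.

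Individual long clones differed between mice. The Trbv5/Trbj2-7 clone, with Trbd2, had 129 templates in the TdLN of mouse 1, 520 in its tumor 1 and 230 in its tumor 2, and 26 in tumor 2 of mouse 2 and 2 in tumor 1 of mouse 3. It made up 16.5% of all productive templates of tumor 1 in mouse 1, where it was the second largest TCR. The Trbv2/Trbj2-1 clone, with Trbd2, had 202 templates in the TdLN and 247 in tumor 1 of mouse 3 and 0 in every other sample, including tumor 2 of mouse 3, where a count of 0 allows up to 0.0780% of templates. It was the largest of all TCRs in the TdLN of mouse 3. The Trbv5/Trbj1-4 clone, with Trbd1, had 22 templates in the TdLN of mouse 5, 216 in its tumor 1 and 5 in its tumor 2. These clones were found in the TdLN and in the first tumor of the same mouse.

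Some other large long clones were found in tumors alone. The Trbv13-3/Trbj2-1 clone, with Trbd2 and 17 amino acids long, had 80 templates in tumor 2 of mouse 5 and 0 elsewhere. The Trbv1/Trbj1-4 clone, with Trbd1, had 30, 22 and 27 templates in tumor 2 of mice 1, 2 and 3, the libraries that shared rearrangements, and 0 in each TdLN, a count that allows between 0.0330% and 0.0925% of a TdLN's templates. The Trbv1/Trbj2-7 clone, with Trbd2, had 3, 2 and 55 templates in the same libraries and 0 elsewhere. In mice 2 and 4 the largest long TCR of tumor 1 was small, with 28 templates for the Trbv13-3/Trbj2-4 clone and 18 for the Trbv26/Trbj2-1 clone, the 13th and the 26th of their samples. Both were also found in the TdLN of the same mouse, with 7 templates in mouse 2 and 3 in mouse 4. Among the 10 largest TCRs of a sample, long CDR3s numbered 1, 1, 2, 1 and 1 in the TdLN of mice 1 to 5, 3, 0, 2, 0 and 1 in tumor 1, and 2, 0, 0, 0 and 1 in tumor 2.

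In the TdLN most long TCRs were seen as 1 template. The single-template share of long TCRs was 71.0%, 78.6%, 62.0%, 81.9% and 77.0% in mice 1 to 5, against 61.2%, 60.7%, 48.1%, 63.5% and 64.0% of the other TCRs. It was higher among long TCRs in 5 of 5 mice, although the ranges of both classes overlapped because mouse 3 was low in each. The means were 74.1% ± 7.85 and 59.5% ± 6.504 (SD, n = 5), a difference of 14.6 percentage points (two-sided exact permutation test, p = 0.0238, adjusted p = 0.0429 over 9 measures). It was 14.5 percentage points without rearrangements found in another mouse, with an adjusted exact permutation p of 0.0635. With the mouse as a block the sign-flip p was 0.0625, the smallest that 5 mice allow, for this and for the other differences between long and other TCRs that had the same sign in every mouse. The mean number of templates per TCR did not pass the test, at 0.86 ± 0.58 on the log2 scale for long and 1.07 ± 0.41 for other TCRs (SD, n = 5; exact permutation p = 0.508, adjusted p = 0.571). Mouse 3 alone had the higher value among long TCRs.

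With lengths up to 11 and from 18 amino acids merged, the single-template share was higher at each length than at the one before. It was 50.1% ± 5.28 for CDR3s of up to 11 amino acids, 60.4% ± 8.09 at 14, 65.5% ± 7.4997 at 15, 73.2% ± 9.52 at 16 and 79.3% ± 7.93 at 18 or more (SD, n = 5 TdLNs). The values just outside and just inside the limit overlapped, ranging over the mice from 52.5% to 70.3% at 15 and from 57.1% to 80.7% at 16. In tumor 1 the single-template share was 51.0% ± 11.9 for long and 46.3% ± 4.97 for other TCRs, and in tumor 2 it was 58.7% ± 14.2 and 51.0% ± 7.35 (SD, n = 5). Long TCRs had the higher share in 3 of 5 mice in tumor 1 and in 5 of 5 in tumor 2. The difference was 4.74 percentage points in tumor 1 and 7.65 in tumor 2, against 14.6 in the TdLN. Neither was distinguished from the TdLN (exact permutation p = 0.0556 and 0.135, adjusted p = 0.259 and 0.333). Of 14 tests of such a change over several measures, none passed. The lowest p was that for TCRs without an assigned D gene in tumor 1 (exact permutation p = 0.0317, adjusted p = 0.259).

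Few long CDR3s were found in more than 1 mouse. In the TdLN, the share of long TCRs whose CDR3 amino acid sequence occurred in any sample of another mouse was 3.78%, 6.41%, 2.17%, 2.67% and 2.21% in mice 1 to 5, against 16.4%, 18.9%, 15.7%, 12.9% and 12.7% of the other TCRs. The ranges of the classes did not overlap. The means were 3.45% ± 1.78 and 15.3% ± 2.59 (SD, n = 5), a difference of -11.9 percentage points (two-sided exact permutation test, p = 0.00794, the smallest that 5 against 5 allow, adjusted p = 0.0179). Counted over the TdLNs of other mice alone, an alternative added after seeing the data, the difference was -11.2 percentage points (adjusted exact permutation p = 0.0179). For the nucleotide rearrangement the shares were 1.53% ± 1.83 and 2.84% ± 1.70 (SD, n = 5) and did not pass the test (exact permutation p = 0.246, adjusted p = 0.316).

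**Figure D2:**
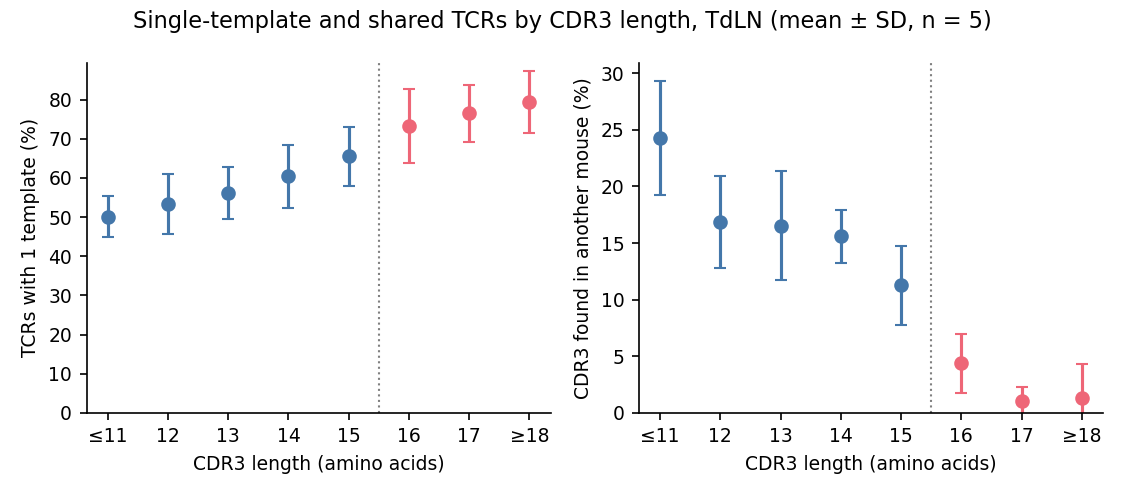
Percentage of TdLN TCRs seen as 1 template (left) and percentage whose CDR3 amino acid sequence was found in another mouse (right) against CDR3 length in amino acids, as mean ± SD of 5 mice, with long CDR3s in red to the right of the dotted line. The left values climb from 50.1% to 79.3%, and the right values fall from 11.3% at 15 to 4.39% at 16 amino acids.

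Over all samples, 51 of the 2118 distinct long CDR3 sequences (2.41%) occurred in 2 or more mice, against 874 of the 12536 other sequences (6.97%). Of the 51, 7 were in 3 mice and 0 in 4 or more. Those 7 include the Trbv5/Trbj2-7 clone, the Trbv1/Trbj1-4 clone and the Trbv1/Trbj2-7 clone, which were found in the libraries of tumor 2 that shared rearrangements, and a further CDR3 with 6 templates from 5 different nucleotide rearrangements. By length, the share of TdLN TCRs found in another mouse was 24.3% ± 5.07 at up to 11 amino acids, 16.9% ± 4.04 at 12, 15.6% ± 2.34 at 14, 11.3% ± 3.50 at 15, 4.39% ± 2.61 at 16 and 1.05% ± 1.26 at 17 (SD, n = 5 mice).

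The overlap of TdLN and tumor did not separate long from other TCRs. The share of long TdLN TCRs found in a tumor of the same mouse was 6.30%, 8.55%, 6.52%, 0.563% and 1.24% in mice 1 to 5, against 9.41%, 6.70%, 7.10%, 0.780% and 1.81% of the other TCRs. Mice 4 and 5, whose TdLNs were sequenced deepest, had the low values in both classes. The means were 4.64% ± 3.53 and 5.16% ± 3.69 (SD, n = 5; exact permutation p = 0.738, adjusted p = 0.738). Within mice they differed by -0.523 ± 1.76 percentage points. Of the long TCRs of tumor 1, 12 of 20, 19 of 46, 12 of 27, 4 of 38 and 6 of 28 were found in the TdLN of the same mouse, against 48.5%, 37.1%, 51.7%, 11.8% and 24.2% of the other TCRs.

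The extra length came from every segment. In the TdLN a long CDR3 had 49.0 ± 0.0868 bases and another CDR3 40.9 ± 0.107 (SD of the means of 5 mice), a difference of 8.07 bases that the rule itself fixes and that is given without a test. Of these bases 31.3% were D, 29.2% were N bases, 27.8% were J and 11.7% were V. The kept D segment had 8.97 ± 0.144 bases in long and 6.44 ± 0.0678 in other CDR3s, and the N bases numbered 5.57 ± 0.266 and 3.21 ± 0.257. N bases were split about evenly between the V to D junction (2.78 in long CDR3s) and the D to J junction (2.79). Trimming was lower, with 1.61 against 3.09 J bases, 2.13 against 3.12 bases at the D 3′ end, 1.99 against 2.56 at the D 5′ end and 1.89 against 2.69 V bases removed. Rearrangements without any N base made up 0.701% ± 0.552 of long and 11.2% ± 3.57 of other TCRs, and among long TCRs of tumor 2 there were 0 of 168. In tumor 1 the shares of the extra length were 28.4% D, 30.1% N bases, 27.6% J and 13.9% V.

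**Figure D3:**
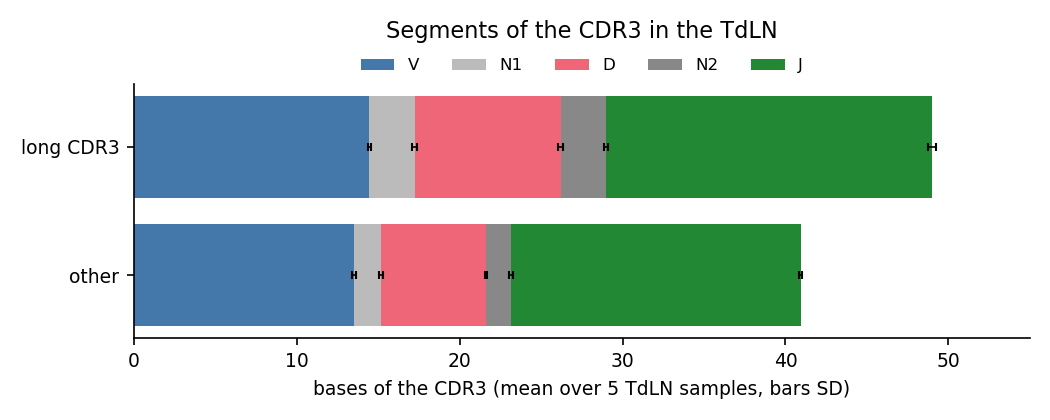
Mean number of CDR3 bases from the V segment, the V to D junction (N1), the D segment, the D to J junction (N2) and the J segment in long and other TCRs of the TdLN, with the SD over 5 mice at the end of each block. The D block spans 8.97 bases in long and 6.44 in other CDR3s, and the J block 20.01 and 17.8.

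Trbd2 was the more frequent D gene among long CDR3s. Of the TdLN TCRs with an assigned D gene, Trbd2 was used by 65.9%, 66.2%, 71.5%, 68.4% and 64.0% of long TCRs in mice 1 to 5, and by 41.7%, 43.4%, 45.7%, 42.0% and 43.3% of the others. Every long value was above every other value. The means were 67.2% ± 2.87 and 43.2% ± 1.57 (SD, n = 5), 24.0 percentage points apart (two-sided exact permutation test, p = 0.00794, adjusted p = 0.0179). Trbd2 is 14 bases long and Trbd1 is 12, so that this measure is not independent of length. A D gene could not be assigned in 5.21% ± 1.03 of long and 19.9% ± 0.977 of other TCRs, as it is when few D bases are left. Kept D bases are part of the length that the rule uses. The share without a D gene was 50.3% at up to 11 and 5.92% at 16 amino acids. The direction was thus set by the rule, and the p of this measure (exact permutation p = 0.00794, adjusted p = 0.0179) is no evidence beyond it. The Trbd2 share was 48.9% ± 4.04 at 15 and 65.5% ± 4.32 at 16 amino acids (SD, n = 5). In the tumors it was also higher among long TCRs in 5 of 5 mice, at 63.7% ± 12.6 against 49.0% ± 3.20 in tumor 1 and 64.9% ± 6.06 against 46.2% ± 7.14 in tumor 2. Tumor 1 of mouse 2 was nearly level, at 53.3% against 53.0%, and tumor 2 of mouse 4 held 3 long TCRs.

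The D gene a rearrangement can use depends on its J gene, since deletional joining brings Trbd1 but not the downstream Trbd2 to a Trbj1 gene. The D share was therefore also read within each J cluster. Among TdLN TCRs with a Trbj2 gene, Trbd2 was assigned to 82.7% ± 2.76 of long and 59.2% ± 2.60 of other TCRs (SD, n = 5). Among those with a Trbj1 gene, where a Trbd2 call is not what the order of the segments leads to, it was assigned to 23 of 400 long TCRs (5.75%) and to 361 of 3608 others (10.01%). The Trbj2 genes themselves made up 78.1% ± 3.28 of long and 65.6% ± 1.78 of other TCRs (exact permutation p = 0.00794, adjusted p = 0.0179). Among TdLN TCRs with at least 2 templates the difference was 0.585 percentage points and did not pass (exact permutation p = 0.794). In tumor 1 the Trbj2 share was higher among long TCRs in 3 of 5 mice, and in tumor 2 in 4 of 5.

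Long CDR3s used more of some J genes of the Trbj2 cluster and less of Trbj2-7 and of several Trbj1 genes. Of 12 J genes tested, 9 had an adjusted p under 0.05 in the TdLN (75%; exact permutation, two-sided, adjusted by Benjamini-Hochberg over the J genes), 5 of them (41.7%) higher and 4 (33.3%) lower among long TCRs. Trbj2-7, with 19 germline bases in the CDR3 the shortest, made up 13.9%, 2.56%, 8.70%, 7.18% and 8.02% of long TCRs in mice 1 to 5 and 23.8%, 25.0%, 22.8%, 24.7% and 24.2% of the others. It was the J gene with the largest difference in percentage points and was lower among long TCRs in 5 of 5 mice (means 8.07% and 24.1%, adjusted exact permutation p = 0.0106). Trbj1-1 and Trbj1-2, with 20 bases each, were lower too, at 2.01% against 11.3% and 1.40% against 6.48%. Trbj1-5 was lower with 1.90% against 3.48%, although it brings 22 bases.

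Among the J genes that were higher, Trbj2-3 rose from 6.80% of other to 15.7% of long TCRs, Trbj2-2 from 4.14% to 12.1%, Trbj2-4 from 7.10% to 13.97%, Trbj2-1 from 12.1% to 17.5% and Trbj1-6 from 2.93% to 5.28% (each adjusted exact permutation p = 0.0106). For Trbj2-2 the per-mouse shares were 14.7%, 8.55%, 12.5%, 13.4% and 11.3% of long against 3.47%, 3.40%, 5.46%, 4.11% and 4.27% of other TCRs. The groups did not overlap. Trbj2-5, Trbj1-3 and Trbj1-4 did not pass the test, with differences of -0.575, 0.525 and 0.561 percentage points.

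**Figure D4:**
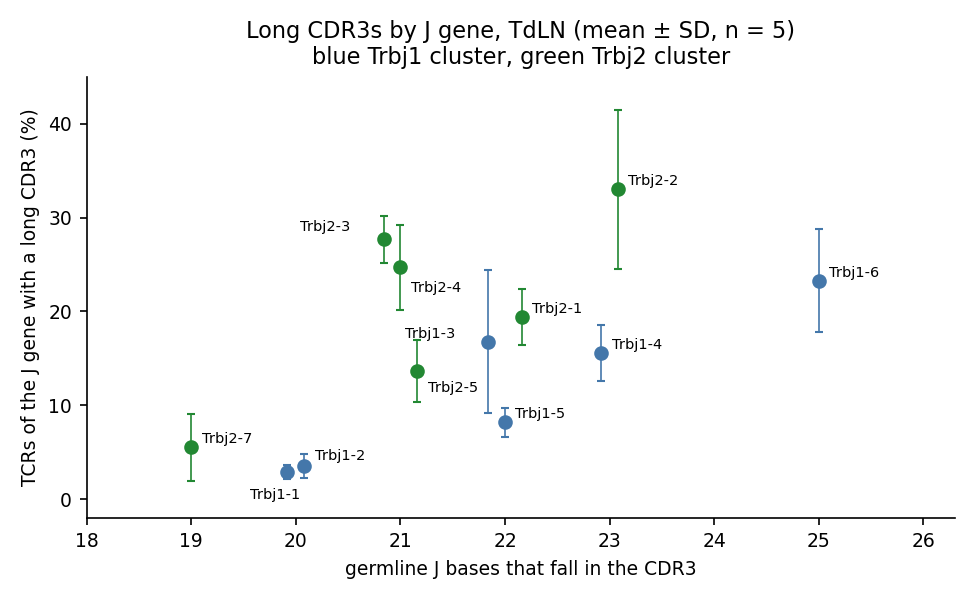
Percentage of each J gene's unique TdLN TCRs that had a long CDR3 against the number of its germline bases that belong to the CDR3, as mean ± SD of 5 mice, with Trbj1 genes in blue and Trbj2 genes in green. Trbj2-2 is highest at 33.0% and Trbj1-1 lowest at 2.88%, and J genes with the same number of bases differ.

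Seen from the J gene, 33.0% ± 8.50 of Trbj2-2 TCRs, 27.7% ± 2.54 of Trbj2-3, 24.7% ± 4.51 of Trbj2-4 and 23.3% ± 5.50 of Trbj1-6 TCRs had a long CDR3, against 5.50% ± 3.55 of Trbj2-7 and 2.88% ± 0.771 of Trbj1-1 TCRs (SD, n = 5). The order did not follow the germline length alone. Trbj1-6 brings 25 bases and Trbj2-3 brings 21, and their shares overlapped. Trbj2-5, with 21 bases like Trbj2-3 and Trbj2-4, had 13.7% ± 3.3002 long, and Trbj1-5, with 22 bases like Trbj2-1, had 8.20% ± 1.54 against 19.4% ± 2.998. In tumor 1 Trbj2-7 was used by 15 of 159 long TCRs (9.43%) and by 27.4% of the others, and in tumor 2 by 20 of 168 (11.9%) and by 24.2%.

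Of 20 V genes tested, 7 had an adjusted p under 0.05 in the TdLN (35%), 3 (15%) higher and 4 (20%) lower among long TCRs. Trbv2, which brings 17 germline bases to the CDR3, made up 6.30%, 8.55%, 10.9%, 8.58% and 8.30% of long TCRs in mice 1 to 5, against 3.56%, 2.38%, 2.91%, 3.04% and 2.96% of the others. It had the largest difference among V genes, with means of 8.52% ± 1.62 and 2.97% ± 0.421 (SD, n = 5; two-sided exact permutation p = 0.00794, adjusted p = 0.0317). Seen from the gene, 32.3% ± 5.30 of Trbv2 TCRs had a long CDR3. Trbv5 rose from 4.82% ± 0.152 of other to 7.49% ± 0.971 of long TCRs (adjusted exact permutation p = 0.0317) and Trbv24, which the GENCODE annotation lists as a pseudogene, from 0.988% ± 0.114 to 1.78% ± 0.561 (adjusted exact permutation p = 0.0317), both in 5 of 5 mice.

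The V genes that were lower among long TCRs were Trbv29 with 2.46% ± 0.1798 against 5.97% ± 1.11, Trbv20 with 0.615% ± 0.167 against 2.62% ± 0.416, Trbv13-1 with 4.90% ± 1.26 against 6.54% ± 0.417 and Trbv4 with 3.39% ± 1.31 against 4.89% ± 0.446 (SD, n = 5; adjusted exact permutation p = 0.0317, 0.0317, 0.0454 and 0.0454). Trbv13-1 was higher among long TCRs in mouse 5 and lower in the other 4. Its call was lost in all 4 limma fits (adjusted p from 0.0549 to 0.0929), and with long taken as 15 amino acids or more its difference was -0.192 (adjusted exact permutation p = 0.579). Trbv4 lost its call in 3 of the 4 limma fits (adjusted p from 0.0680 to 0.0956). Trbv29 and Trbv4 bring 17 bases as Trbv2 and Trbv5 do, Trbv13-1 brings 16 and Trbv20 brings 14. With any 1 mouse left out, 0 of the V genes passed, where 4 mice against 4 allow no p under 0.0286, and each of the 7 kept its direction. In the tumors Trbv5 was used by 25 of 159 long TCRs (15.7%) of tumor 1 and by 7.35% of the others, and by 22 of 168 (13.1%) of tumor 2 and by 6.90% of the others. Trbv1 was used by 20 of the 168 long TCRs of tumor 2 (11.9%) and by 5.96% of the others. These counts hold a rearrangement once per library, so those shared between the tumor 2 libraries of mice 1 to 3 recur in them. The Trbv1/Trbj1-4 and Trbv1/Trbj2-7 clones were each counted in all of these libraries.

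**Figure D5:**
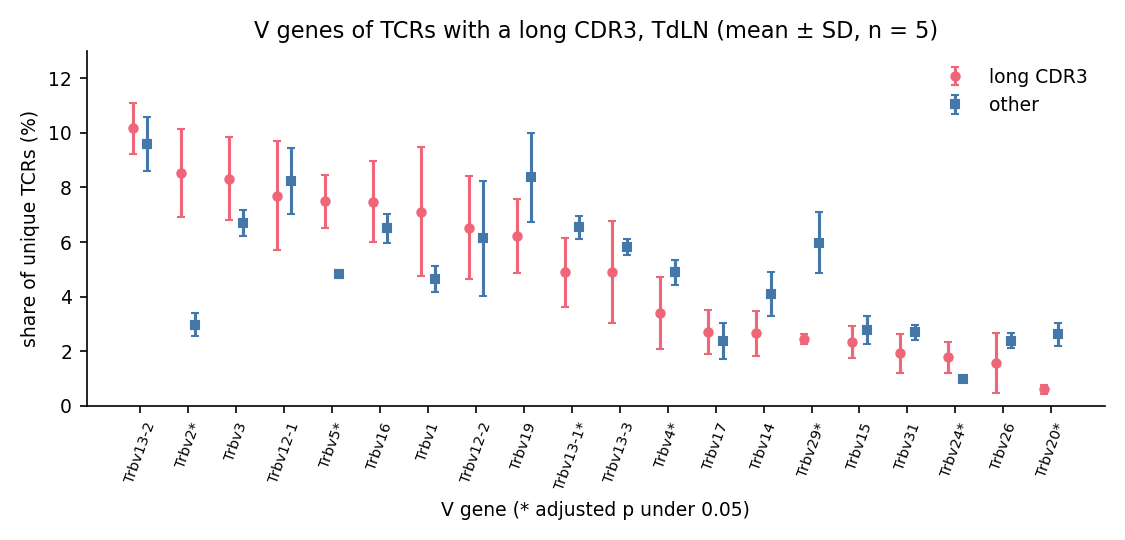
Share of unique TdLN TCRs using each of 20 V genes in percent among long (red circles) and other TCRs (blue squares), as mean ± SD of 5 mice, ordered by the share among long TCRs. Asterisks mark the 7 V genes with an adjusted p under 0.05, among them Trbv2 at 8.52% against 2.97% and Trbv29 at 2.46% against 5.97%.

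The amino acid composition of the loop was compared with 4 residues at each end left out. The J genes tested bring 19 to 25 germline bases to the CDR3, so residues that J genes encode remained in the part compared. How far the differences follow from J use was not tested. Of 20 amino acids 0 passed the adjusted exact permutation test (0% called), while 9 had an unadjusted p under 0.05, and limma on log2 shares called 4. Glycine was the most frequent, at 24.4% ± 1.35 of residues in long and 22.3% ± 0.574 in other CDR3s (SD, n = 5; exact permutation p = 0.0159, adjusted p = 0.0794). All 5 mice had more of it in long CDR3s. Threonine, at 5.48% against 6.70%, and tyrosine, at 3.97% against 5.08%, were lower in 5 of 5 mice. Alanine, at 8.70% against 7.60%, and tryptophan, at 3.17% against 2.62%, were higher in 5 of 5 mice. For threonine, tyrosine and alanine the exact permutation p was 0.00794 (adjusted p = 0.0529), the smallest that 5 against 5 allow. The count of 0 called thus does not show that the classes are alike.

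The motif of aspartate, tryptophan and glycine that Trbd2 encodes in one reading frame was noticed in the largest long TCRs, so its values are a description. It stood in 12.3% ± 2.98 of the unique long TCRs of the TdLN and in 5.60% ± 0.703 of the others, in 19.97% ± 18.1 and 6.74% ± 1.30 in tumor 1, and in 23.8% ± 10.8 and 5.91% ± 3.06 in tumor 2 (SD, n = 5). In tumor 1 the motif stood in 10 of 20, 7 of 46, 6 of 27, 2 of 38 and 2 of 28 long TCRs of mice 1 to 5, so that mouse 1 stood above the rest. In tumor 2 it stood in 13 of 40, 12 of 47, 4 of 19, 1 of 3 and 4 of 59. The libraries of mice 1 to 3 are those that shared rearrangements. The tumor 2 share was higher among long TCRs in mice 1 to 4 and lower in mouse 5, at 6.78% against 8.87%. A longer loop holds more places for any motif. By templates, the motif was carried by 34.6%, 23.2%, 7.60%, 15.2% and 16.6% of the long templates of the TdLN in mice 1 to 5. In tumor 1 the values were 89.5%, 34.3%, 8.77%, 2.02% and 3.64%. In tumor 2 they were 77.6%, 44.05%, 47.1%, 25% (1 of 4 templates) and 3.27%. The ranges overlapped, and mouse 1, the mouse of the large Trbv5/Trbj2-7 clone, had the highest value of each tissue.

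Out-of-frame rearrangements, which encode no receptor and ride along in cells whose other allele is productive, are not acted on through the receptor they would encode. They were compared with all in-frame rearrangements of the TdLN by CDR3 length in bases. In-frame lengths are multiples of 3, so that 48 bases or more correspond to 16 amino acids, and out-of-frame lengths fall between these steps. The share of long rearrangements was 14.3% ± 2.12 in frame, and 20.4% ± 2.29 out of frame with long taken as 47 bases or more (SD, n = 5). The difference of -6.05 ± 0.591 percentage points had the same sign in 5 of 5 mice (two-sided exact permutation test, p = 0.00794). With long taken as 48 bases or more on both sides, which leaves out-of-frame lengths of 49 and above, the out-of-frame share was 11.4% ± 2.31 and the difference turned to 2.96 (exact permutation p = 0.0794). The direction thus rests on which side of the in-frame step the out-of-frame lengths are cut.

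Measures that need no limit were added after these values were seen. The mean CDR3 length was 42.0 ± 0.233 bases in frame and 42.5 ± 0.206 out of frame, and longer out of frame in 5 of 5 mice. The SD of lengths within a TdLN was 4.50 ± 0.166 bases in frame and 5.03 ± 0.233 out of frame (SD, n = 5), and wider out of frame in 5 of 5 mice. In the tumors the out-of-frame lengths were also wider in 5 of 5 mice, while their mean was shorter in 3 of 5 mice in tumor 1 and in 2 of 5 in tumor 2.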

How the data were processed

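Genomic DNA was sent by the study to the immunoSEQ provider, whose tables give V, D and J genes and reading frame per rearrangement. The software behind them is not given in the sources used here, and the genome build in the labels is mm10. The deposited counts, made by the authors' provider, are whole numbers of templates per rearrangement and were used without normalization. Deposited segment positions, insertions and deletions gave the segment lengths. Fractions were not used. Productive rearrangements that did not begin with cysteine (177) were left out.

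The members and lists were chosen with earlier results of these data known. Groups were compared with two-sided exact permutation tests, where 5 against 5 allow no p under 0.00794, and p-values were adjusted with the Benjamini-Hochberg method within each family. A V or J gene was tested where it averaged 1% or more. Named V and J genes passed an adjusted p of 0.05 (at most 6 each way), the amino acids the 3 with the largest difference, there being none called, and the TCRs each sample's largest, those in most mice and the longest. Further TCRs and amino acids named in the text were chosen after their values were seen. Samples with the same number were taken as 1 mouse, since the study describes its TdLN and tumor samples as paired.

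All 42 gene names of the productive TCRs matched GENCODE M21, and sequences were matched to GRCm38. Python 3.11.15, numpy 2.4.6, pandas 2.3.3, scipy 1.17.1, R 4.3.3 and limma 3.58.1 were used. The exact permutation test of means and the sign-flip test were checked on simulated data, and limma was not. The alternatives are listed with their effect at the end. Wilson intervals (95%) and limits for a count of 0 (3 counts) cover counting error only. Tumors held 47 to 544 productive TCRs, which limits their precision.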

Additional observations from a re-analysis of the deposited data

How the results depend on the processing

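Of 341 values recomputed under the alternatives, 262 did not change, which means the same direction and side of the threshold where a test was run, a count of genes within 1.5 times, or, with no test, a shift smaller than the spread between mice. Changing the limit of the rule, from 15 amino acids the template share of tumor 2 minus TdLN passed (-14.3), the single-template difference no longer did (11.5) and 5 amino acids were called. From 17, the template share of tumor 1 minus TdLN (-1.89) and the shared nucleotide rearrangements (-2.46) passed, tumor 1 minus tumor 2 by templates turned to -0.621, the share found in a tumor turned to 0.876 and 4 amino acids were called. From 18, log2 templates per TCR passed (-0.67), tumor 1 minus tumor 2 of unique TCRs turned to -0.0684 and 0 V genes were called. With at least 2 templates, tumor 1 minus TdLN turned to 1.52 (unique TCRs) and 0.471 (templates), log2 templates per TCR to 0.0681, the shared nucleotide rearrangements to 0.0875, the share found in a tumor to 2.54 and Trbv13-1 to 0.475, the Trbj2 share lost its call (0.585), and 0 V and 4 J genes were called. Merging rearrangements with the same V gene, J gene and CDR3 amino acids let the sharing of rearrangements pass (-4.75) and called 4 amino acids. Without rearrangements found in another mouse, tumor 1 minus TdLN by templates turned to 2.14, tumor 2 minus TdLN passed (-5.56) and the single-template difference did not (14.5). Within mice 1 to 3 and mice 4 and 5 the CDR3 sharing differences were -5.23 and -7.14 and those of nucleotide rearrangements -0.309 and -0.753, since fewer mice are left to share with.

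With the mouse as a replicate block, the sign-flip p was 0.0625 for the in-frame difference (-6.05), and the single-template (14.6), CDR3 sharing (-11.9), Trbd2 (24.0), no D (-14.7) and Trbj2 (12.5) differences lost their calls, as 5 mice allow no smaller p. limma with this replicate block and a pseudocount of 0.5 called 10 V, 9 J genes and 4 amino acids, and without it 7, 9 and 4, though the V genes called were not all those of the permutation test. With a pseudocount of 0.1 it called 6, 9 and 4 with the block and without it. With medians the single-template (15.9), CDR3 sharing (-12.98), Trbd2 (22.9), no D (-14.6) and Trbj2 (12.9) differences did not pass and tumor 1 minus tumor 2 turned to -0.319. Rearrangements with a stop codon in place of out-of-frame ones gave -13.02 without passing, and the limit of 48 bases gave 2.96. With the largest long TCR of each sample left out, tumor 1 (-5.51) and tumor 2 minus TdLN (-6.97) by templates were lower by construction, so their p is no test. Leaving out each mouse in turn, single-template differences ranged from 13.7 to 15.8, CDR3 sharing from -11.3 to -8.07, Trbd2 from 23.4 to 24.8, no D from -15.0 to -14.4 and Trbj2 from 11.3 to 14.02, and none of these passed (adjusted p from 0.0514 to 0.129). Here 4 against 4 allow no p under 0.0286, and p was above that for the single-template share without mouse 1 or 2 (0.0857) and without mouse 4 or 5 (0.0571), and for CDR3 sharing without mouse 4 or 5 (0.0571). The share found in a tumor ranged from -1.12 to 0.122, turning without mouse 1, and 0 V genes were called in each case, against 9 J genes. Ending the CDR3 in phenylalanine, removing small rearrangements that share their last 40 bases, downsampling to 234 templates (100 draws) and leaving out tumor 2 of mouse 4 changed no call and no direction of the mean differences they were run on. Even so, tumor 1 minus tumor 2 of unique TCRs moved to 0.243 without tumor 2 of mouse 4, and tumor 1 minus TdLN to -0.915 when downsampled and to -0.718 without mouse 1.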

Other observations

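Fewer nucleotide rearrangements per amino acid sequence were counted among long CDR3s. A long CDR3 sequence was encoded by 1.08 nucleotide rearrangements on average and another CDR3 by 1.20, pooled over all samples. The pools differed in size, with 2118 and 12536 distinct amino acid sequences, and the difference was not tested. Among the 7 long CDR3s found in 3 mice, one had 5 rearrangements for 6 templates and another had 15 templates from 1 rearrangement.

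The reading frame of Trbd2 was read per TCR and per template. In the TdLN the frame that encodes the tryptophan was used by 35.5% ± 5.33 of long and 36.2% ± 2.96 of other Trbd2 TCRs (SD, n = 5). Per TCR the values were 47.65% ± 18.9 and 35.2% ± 5.36 in tumor 1, and 44.2% ± 15.2 and 29.7% ± 5.55 in tumor 2. By templates it held 1084 of 2166 (50.05%) in long TdLN TCRs, 1073 of 1306 (82.2%) in tumor 1 and 479 of 677 (70.8%) in tumor 2, against 36.5%, 34.6% and 13.7% of other Trbd2 templates. These values were not tested, and in tumor 1 520 of the 1073 templates are the Trbv5/Trbj2-7 clone of mouse 1. Of the 479 templates of tumor 2, that clone held 230 in mouse 1 and 26 in mouse 2, libraries that shared rearrangements. It also held 129 of the 1084 TdLN templates.

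The longest CDR3s had 20 amino acids, in 3 TCRs of 1 template each. The Trbv17/Trbj2-2 TCR was in the TdLN of mouse 5, the Trbv5/Trbj2-3 TCR in the TdLN of mouse 3 and the Trbv13-2/Trbj2-5 TCR in tumor 2 of mouse 3. Each was assigned Trbd2.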
